A study of Homo sapiens with 6 samples.

Results

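The genes described here are 35 well-established target genes of the transcription factor p53 that lie outside the CDK inhibitor, BCL2, death receptor, sestrin and DNA repair families. They were chosen by name, 35 of the 30560 genes listed, and each had a row. RNA was sequenced from HCT116, an established human colorectal carcinoma line whose genotype is labelled WT. In the CPT-11 group (3 libraries) the cells had received irinotecan (CPT-11) at 10 µM for 48 h, and in the control group (3 libraries) they had received DMSO. Irinotecan is a prodrug whose active metabolite traps topoisomerase I on DNA. Whether each library stands for its own culture is not said in the labels, and the p-values therefore cover only the differences among these libraries, which may be technical.

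p53 is kept scarce in unstressed cells by the ubiquitin ligase MDM2, and DNA damage stabilises it. It then binds response elements made of paired copies of a 10-base motif, near or within its target genes, and raises their transcription. Beside the genes that halt the cell cycle or start apoptosis, its direct targets include enzymes of redox and mitochondrial metabolism, kinases, membrane proteins, and factors that act on RNA and on other proteins.

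The libraries held 15398464 to 18031195 reads on genes, and the mitochondrial chromosome took 10.3% ± 0.62 of them in CPT-11 libraries and 7.24% ± 0.34 in control libraries (SD, n = 3 each). Library 1 stood apart from libraries 2 and 3 in both groups. A chi-square comparison of reads over genes, per degree of freedom, gave 8.0 and 10.8 for CPT-11 library 1 against the other CPT-11 libraries, and 3.19 for those against each other. It gave 11.5 and 11 for control library 1 against the other controls, and 3.86 for those against each other. Of 12 markers of colonic epithelium 10 had a row and 7 averaged at least 10 normalized counts. These included EPCAM, KRT8, KRT18, KRT19, CDH1 and CDX2, while VIL1, GPA33 and LGALS4 averaged below 10. The summed level of that list was 101782 to 112766 in CPT-11 libraries and 54643 to 62572 in control libraries. Most of it was KRT8, KRT18 and KRT19, while EPCAM did not pass (log2 -0.05, limma adjusted p = 0.69). Every other marker of that list averaging at least 10 was called higher by limma, from log2 0.40 (CDH1) to 2.30 (KRT20). Of 10 leukocyte markers 7 had a row, with sums of 68.8 to 70.9 in CPT-11 and 13 to 28.9 in control libraries, of which ITGAM alone averaged at least 10. Of 10 stromal markers 8 had a row, with sums of 959 to 1278 in CPT-11 and 560.0 to 672 in control libraries, most of it COL1A1. The mitochondrial share and these sums moved with the treatment, and their part in the results was not tested. In bulk RNA, a change in the number of cells that express a gene and a change in its RNA per cell cannot be told apart.

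Most of these p53 targets were higher in CPT-11 cells. Values are normalized counts, reads scaled by the authors with a single size factor for each library. A gene was tested if it averaged at least 10 over the 6 libraries and was called at a Benjamini-Hochberg adjusted p below 0.05 by limma, over 16239 tested genes. Of the 34 members tested 30 rose and 2 fell (KITLG and TNFAIP8), while APAF1 and TP53I11 did not pass. EDA2R fell below the filter and is described by its reads. Of all tested genes 49.4% were called, 24.3% higher and 25.1% lower. The median log2 fold change was 0.96 over the 34 members and 0.01 over all tested genes. At least 2-fold rises were called for 15 members, against 6.56% of tested genes, and at least 4-fold rises for 5 members, against 1.45%. None of the 34 averaged below 10 in either group, so none entered through 1 group alone.

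**Figure D1:**
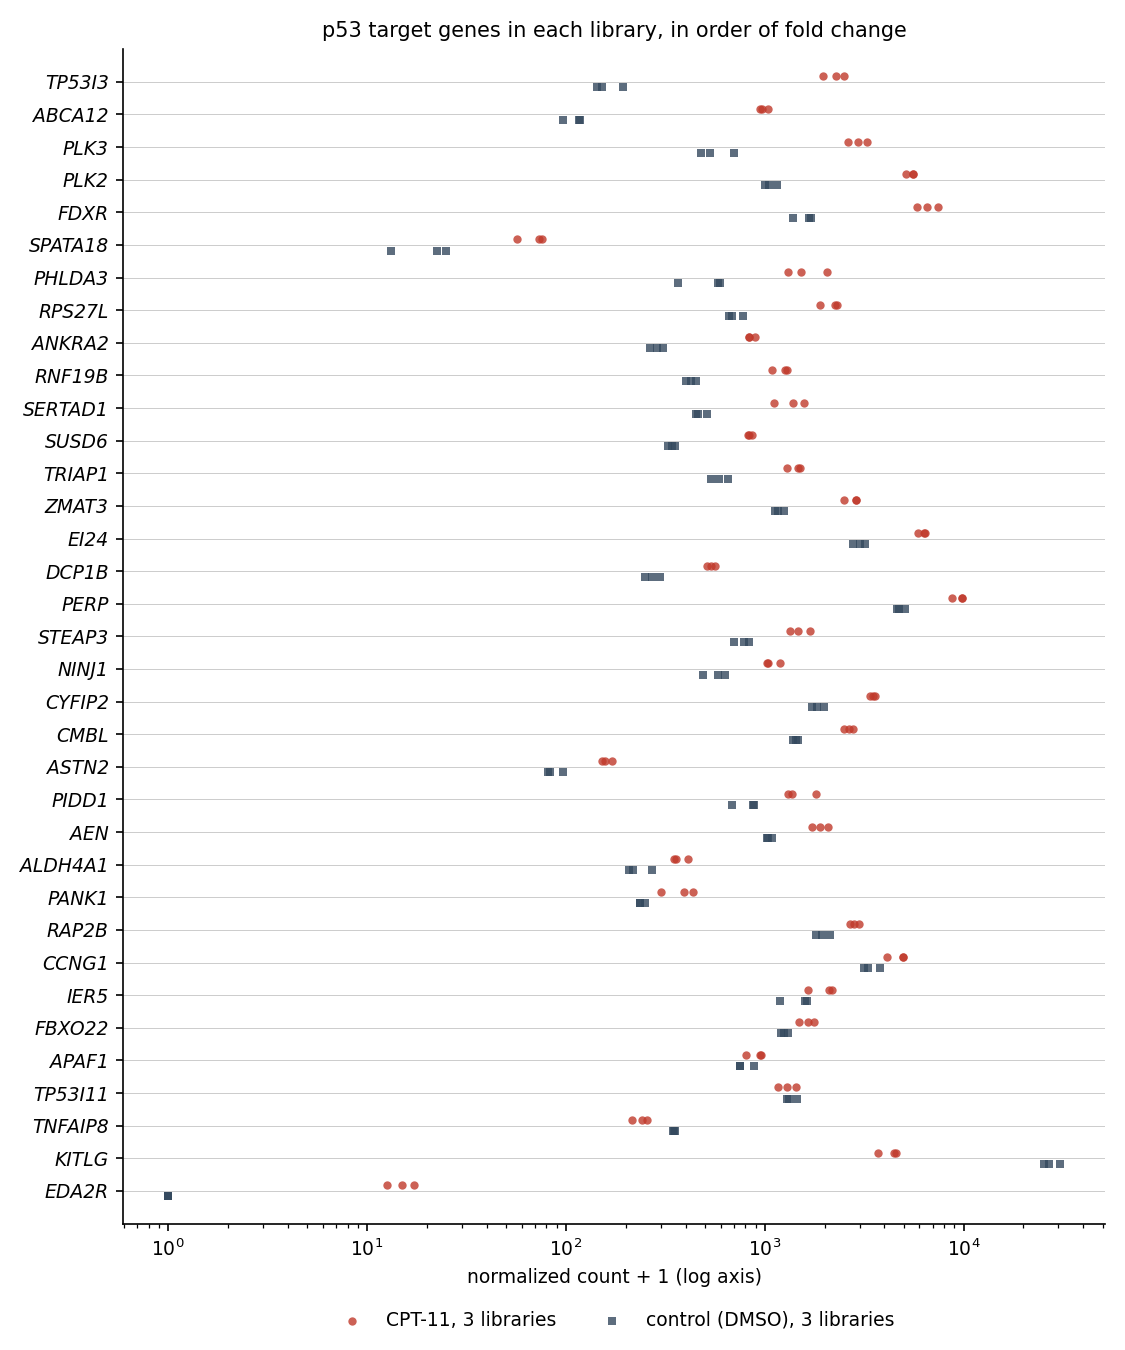
Normalized count plus 1 (log axis) of each of the 35 genes in each of the 3 CPT-11 libraries (red circles) and the 3 control libraries (blue squares), in order of fold change with EDA2R last. The groups do not overlap in 33 genes, of which 31 are higher in CPT-11 and 2, TNFAIP8 and KITLG, are lower; APAF1 and TP53I11 overlap.

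Without any test, the 3 CPT-11 values all lay above the 3 control values in 31 of the 35 genes, EDA2R included, and all lay below them in 2. Among all tested genes the groups were separated in this way in 56.6%, 27.8% with CPT-11 higher and 28.8% with CPT-11 lower. The authors' deposited table gives an adjusted p below 0.05 and a positive log2 fold change to 31 members, and a negative one to 2. The same count over all genes of that table was not made. By limma 24.3% of tested genes were called higher and 25.1% lower. Over the 34 tested members the largest gap between that table's log2 fold change and the limma value was 0.02.

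RefSeq promoters (GRCh38.p14; 250 bases before to 50 bases after a start) were at hand for 31 of the members, 45 promoters in all. The p53 decamer consensus, a 10-base motif that reads the same on both strands and so needs no second search, was matched exactly in 8 of these 45 promoters (17.8%), each of a different gene. It was matched in 6.63% of all 35116 promoters of the same length. In a list of other direct p53 targets it was matched in 7 of 91 promoters (7.69%). A match is a stretch of letters and not a site shown to be bound. The 8 stretches are shown because they carry this match. Their genes all rose, by log2 0.52 (RAP2B) to 3.16 (ABCA12), but so did most members: 30 of the 34 tested. Whether a match goes with a rise was not tested. Each stretch is 100 bases, 5′ to 3′ on the gene's strand, with the matched decamer in capitals.
ABCA12: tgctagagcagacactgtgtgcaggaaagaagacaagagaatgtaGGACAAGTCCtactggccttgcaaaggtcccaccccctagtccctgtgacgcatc
AEN: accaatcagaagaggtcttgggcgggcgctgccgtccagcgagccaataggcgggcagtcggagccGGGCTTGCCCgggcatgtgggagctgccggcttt
EI24: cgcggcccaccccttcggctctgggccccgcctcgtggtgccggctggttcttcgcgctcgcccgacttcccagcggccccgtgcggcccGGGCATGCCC
FDXR: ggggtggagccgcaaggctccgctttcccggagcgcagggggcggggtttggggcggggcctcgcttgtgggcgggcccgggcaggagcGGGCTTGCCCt
PANK1: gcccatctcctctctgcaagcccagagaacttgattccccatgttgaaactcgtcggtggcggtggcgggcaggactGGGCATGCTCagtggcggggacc
PLK2: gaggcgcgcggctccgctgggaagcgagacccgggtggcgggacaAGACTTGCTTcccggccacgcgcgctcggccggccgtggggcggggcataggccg
RAP2B: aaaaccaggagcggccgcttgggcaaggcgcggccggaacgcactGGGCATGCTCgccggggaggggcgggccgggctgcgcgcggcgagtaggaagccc
RPS27L: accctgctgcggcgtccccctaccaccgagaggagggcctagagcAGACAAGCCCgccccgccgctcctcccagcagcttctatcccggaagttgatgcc

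All 8 stretches lie before the RefSeq start of their promoter. By the GENCODE 29 gene coordinates, the decamers of ABCA12 and RAP2B lie before the gene. Those of AEN, EI24, FDXR, PANK1, PLK2 and RPS27L lie within it, since the annotated gene begins further upstream. They are chr2:215138654-215138753 (minus strand) for ABCA12, chr15:88621240-88621339 (plus) for AEN, chr11:125569377-125569476 (plus) for EI24 and chr17:74872995-74873094 (minus) for FDXR. The others are chr10:89645243-89645342 (minus) for PANK1, chr5:58460164-58460263 (minus) for PLK2, chr3:153162120-153162219 (plus) for RAP2B and chr15:63157482-63157581 (minus) for RPS27L. The last base of the decamer stood 1 base before the start in EI24, 2 in FDXR, 14 in PANK1 and 25 in AEN. It stood 50 bases before the start in RPS27L, 52 in RAP2B, 73 in ABCA12 and 123 in PLK2. AEN and FDXR held the same decamer, and so did PANK1 and RAP2B. Under a looser rule, a pair of decamers up to 13 bases apart with at most 3 mismatches in all, 22 of the 45 member promoters matched (48.9%), and 39.1% of all promoters did.

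The enzymes and mitochondrial proteins rose in 8 of 8 cases, with a median log2 fold change of 1.11. This count and those of the other roles below stand beside 30 of 34 tested members that rose. Over all tested genes 24.3% were called higher and 25.1% lower. TP53I3 (chr2:24077433-24085861, GRCh38), a quinone oxidoreductase, had 2496, 2283 and 1957 normalized counts in CPT-11 libraries, against 151, 193 and 143 in control libraries. The lowest CPT-11 library was far above the highest control, and the mean was 13.8-fold higher (log2 fold change 3.79, SE 0.13, limma adjusted p = 6.12e-13). TP53I3 had the highest fold change of the tested members and the 44th highest of all tested genes. FDXR, the mitochondrial reductase that hands electrons to ferredoxin and is needed for steroid and iron-sulfur cluster synthesis, had 7425, 6536 and 5828 normalized counts in CPT-11 and 1387, 1700.1 and 1671 in control libraries. All CPT-11 values again lay above all control values (log2 2.05, SE 0.10, limma adjusted p = 6.14e-11). Its partner FDX1, a ferredoxin, rose by log2 0.30 (limma adjusted p = 0.024), a call lost in 5 of 18 alternative settings.

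Of the remaining members of the same role, SPATA18, which acts in the repair and removal of damaged mitochondria, was among the least abundant members. It had 72.3, 75 and 55.7 normalized counts in CPT-11 and 24, 21.4 and 12.3 in control libraries. The groups were apart, and the estimate was the least precise of the tested members (log2 1.80, SE 0.29). TRIAP1, a small protein of the mitochondrial intermembrane space that takes part in lipid transfer and restrains apoptosis, averaged 1425 ± 120.3 in CPT-11 and 590.3 ± 57.4 in control libraries (SD, n = 3 each; log2 1.27). STEAP3, the endosomal ferrireductase that readies transferrin iron for export into the cytosol, averaged 1496 ± 172 in CPT-11 and 774 ± 67.6 in controls (log2 0.95). SLC11A2, the transporter that carries this iron on, fell, with a log2 fold change of -0.27, a call lost in 6 of 18 alternatives, and the transferrin receptor gene TFRC did not pass. CMBL, a hydrolase that opens certain ester prodrugs, rose by log2 0.88. ALDH4A1, a mitochondrial dehydrogenase of proline breakdown, had a log2 fold change of 0.70; 41.1% of its exonic bases are shared with another annotated gene on the same strand, so its counts are uncertain. PANK1, which starts coenzyme A synthesis, had 299.8, 393 and 437 normalized counts in CPT-11 and 248, 234 and 236 in control libraries. CPT-11 library 1 was the lowest of its group and closest to the controls (log2 0.64, SE 0.14). PANK1 shares 8.13% of its exonic bases with another annotated gene on the same strand, which limits its counts as well.

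**Figure D2:**
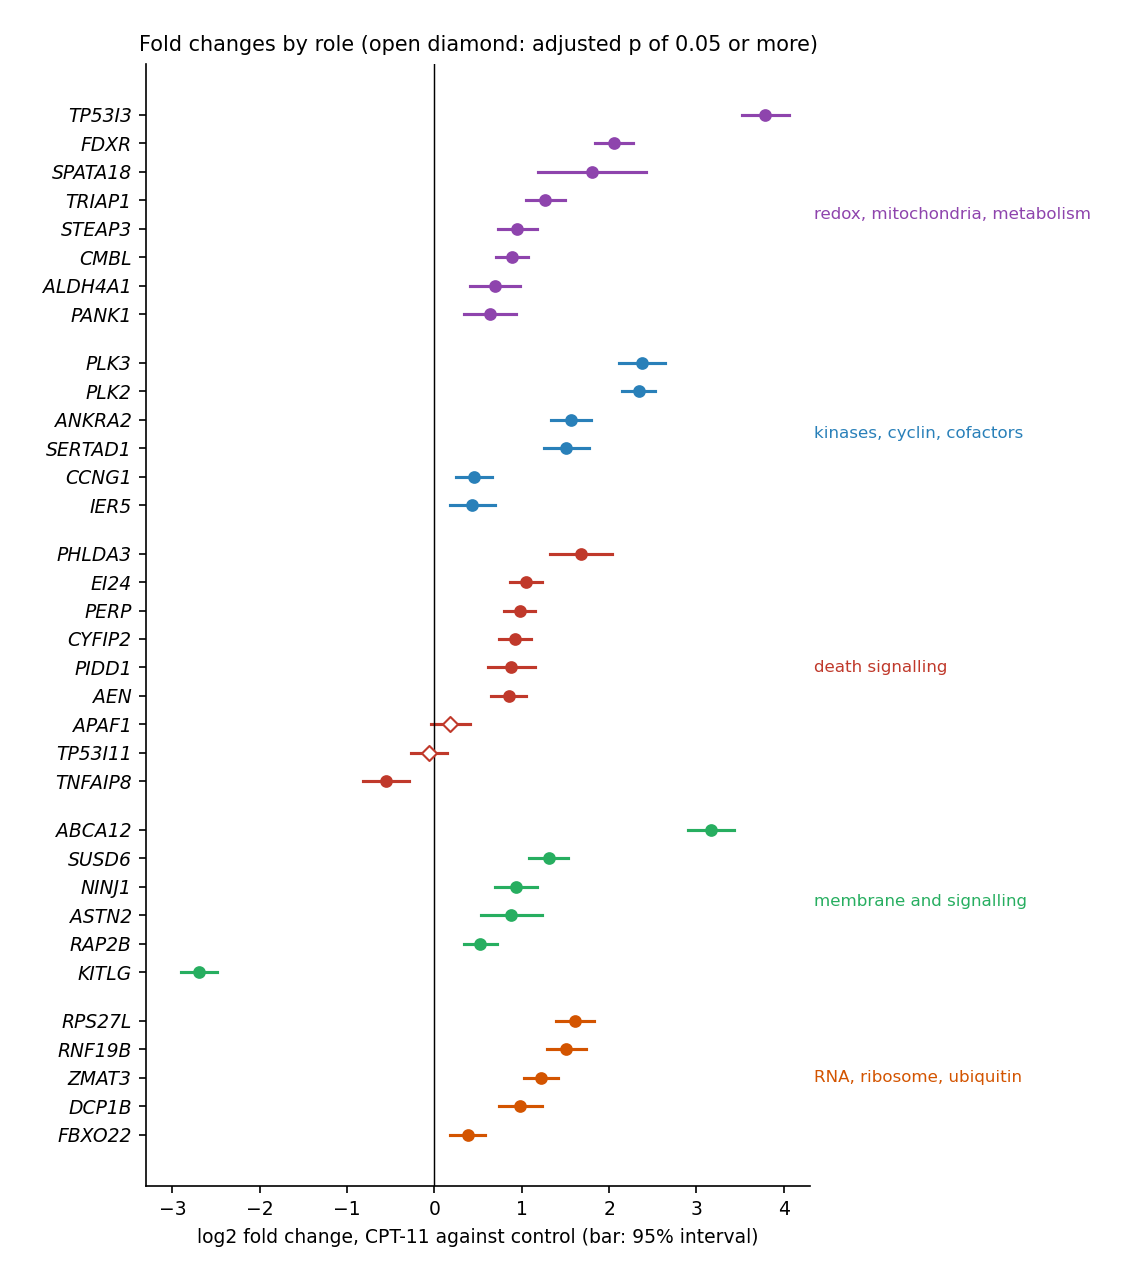
Log2 fold change of each of the 34 tested genes, CPT-11 against control (n = 3 each), by role, with the 95% confidence interval of the limma estimate as a bar. Filled circles passed an adjusted p of 0.05 and open diamonds did not; KITLG at -2.70 and TNFAIP8 at -0.56 are the 2 genes that fell.

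The kinases, the cyclin and the transcription cofactors rose in 6 of 6 cases, with the highest median of the roles (log2 1.54). PLK2 and PLK3, polo-like kinases that act in stress responses rather than in mitosis, rose most. PLK3 had 3258, 2938 and 2637 normalized counts in CPT-11, against 476, 704 and 532 in control libraries (log2 2.38, SE 0.13). PLK2 had 5112, 5549 and 5558 in CPT-11, against 1156, 1001 and 1049 in control libraries (log2 2.34, SE 0.09). In both genes every CPT-11 library exceeded every control by a wide margin. The mitotic relatives PLK1 and PLK4 fell, with log2 fold changes of -1.78 and -1.69. SERTAD1, a cofactor of E2F and cyclin D complexes, rose by log2 1.51, and ANKRA2, an ankyrin-repeat protein that binds histone deacetylases and megalin, by log2 1.57. Neither SERTAD2 (-0.19) nor SERTAD3 (0.01) passed the test.

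The smallest rises of this role were in CCNG1 and IER5. CCNG1, cyclin G1, which recruits a phosphatase that activates MDM2, was abundant in both groups: 4138, 4946 and 4945 normalized counts in CPT-11, against 3778, 3305 and 3150.4 in control libraries. The groups did not overlap although the difference was small (log2 0.45, SE 0.10, limma adjusted p = 0.000806). IER5, an immediate early protein that activates the heat shock factor HSF1, had 2182, 2113 and 1657 in CPT-11 and 1199, 1624 and 1592 in control libraries. Its lowest CPT-11 value was only just above its highest control value (log2 0.43, SE 0.12), and its limma adjusted p of 0.00743 was the highest among the members that passed. Without library 1 of both groups the IER5 difference came to log2 0.22 (limma adjusted p = 0.0417). IER5L and IER2, of the same family, fell (log2 -0.74 and -0.48). The IER5L groups overlapped, with control library 1 at 1604 and CPT-11 library 1 at 1780.

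Of the 9 genes of death signalling 6 rose, 1 fell and 2 did not pass (median log2 0.88). PHLDA3, which blocks AKT by competing for membrane lipids, had 2066, 1526 and 1310.4 normalized counts in CPT-11, against 365, 579.9 and 595 in control libraries. The groups were apart, and library 1 was the extreme one in each: highest in CPT-11 and lowest in control. The log2 fold change was 1.68 (SE 0.17) with all 6 libraries and 1.27 (SE 0.09) without library 1 of both groups. With 19.1% of its exonic bases also annotated to another gene on the same strand, its counts are uncertain too. Its relative PHLDA1 fell (log2 -0.98) and PHLDA2 rose (log2 0.46). The PHLDA2 groups overlapped, with control library 2 at 5452 and CPT-11 library 3 at 5288.

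PERP, a tetraspan protein of desmosomes that takes part in p53-dependent death, was one of the more abundant members. It averaged 9455 ± 577 normalized counts in CPT-11 and 4811 ± 215 in controls (SD, n = 3 each; log2 0.97). EI24, a protein of the endoplasmic reticulum, averaged 6212 ± 285 in CPT-11 and 3006 ± 208 in controls (log2 1.05). CYFIP2, a subunit of the actin-regulating WAVE complex, rose by log2 0.92, while the paralog CYFIP1 did not pass (-0.13). AEN, a nuclease that degrades DNA and RNA in apoptosis, rose by log2 0.85. ISG20, an exonuclease of the same family, rose by log2 1.41, and its gene lies close to AEN on chromosome 15.

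PIDD1 and APAF1 form the scaffolds on which caspases are activated. PIDD1, the scaffold of the PIDDosome that activates caspase-2, had 1813, 1375 and 1315 normalized counts in CPT-11, against 681, 869.8 and 887 in control libraries. Library 1 was again the highest in CPT-11 and the lowest in control (log2 0.88, SE 0.13; 0.61 without library 1 of both groups). CASP2 itself fell (log2 -0.42), and the adaptor gene CRADD did not pass (-0.26). APAF1, the core of the apoptosome that activates caspase-9, had 801, 952 and 949.7 in CPT-11, against 884, 748 and 748 in control libraries. The groups overlapped, with CPT-11 library 1 below control library 1. The log2 fold change of 0.18 (95% interval -0.05 to 0.41) did not pass (limma adjusted p = 0.173). Without library 1 of both groups it was 0.35 and passed (limma adjusted p = 0.00118). CASP9 (-0.19) and the cytochrome c gene CYCS (0.20) did not pass with all 6 libraries.

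TP53I11, whose product has been tied to cell adhesion and migration, had 1432, 1301 and 1169 normalized counts in CPT-11, against 1296, 1451 and 1322 in control libraries. The values of both groups were interleaved (log2 -0.06, 95% interval -0.27 to 0.14, limma adjusted p = 0.623). TNFAIP8, which restrains apoptosis and carries phosphoinositides, had 213, 254 and 242 in CPT-11, against 353, 343 and 348 in control libraries. All CPT-11 values lay below all control values (log2 -0.56, SE 0.12, limma adjusted p = 0.00119). Its relative TNFAIP8L1 did not pass (-0.13).

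Among the 7 genes of membrane and signalling proteins, KITLG set itself apart. KITLG (chr12:88492793-88580851) encodes stem cell factor, the ligand of the receptor tyrosine kinase KIT. It had 3723, 4491 and 4593 normalized counts in CPT-11, against 30579, 25500.2 and 26789 in control libraries. Every CPT-11 value was far below every control value, and the mean of CPT-11 libraries was 0.155 of the control mean (log2 -2.70, SE 0.10, limma adjusted p = 1.05e-12). Without library 1 of both groups it was log2 -2.52. This fold change was the 45th lowest of all tested genes. In control cells KITLG was the 72nd most abundant of 16665 listed protein-coding genes by normalized counts per kilobase of exonic length. It made up 5.51% of the summed normalized counts of the 35 genes in CPT-11 and 45% in control libraries.

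In the sum over the 35 genes the fall of KITLG offset much of the rise of the others. That sum was 77129.7, 79418 and 76091 normalized counts in CPT-11 libraries and 64291, 60071 and 59775 in control libraries. Without KITLG the sum of the other 34 was 73406, 74927 and 71498 in CPT-11 and 33711, 34571 and 32987 in control libraries. The receptor gene KIT averaged 1.73 normalized counts in CPT-11 and 5.56 in controls and was not tested.

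ABCA12 (chr2:214931542-215138428), a lipid transporter best known from the skin barrier, rose most among the 6 tested membrane genes. It had 943, 1044 and 973 normalized counts in CPT-11, against 117, 96.3 and 115 in control libraries. The groups were far apart, with a 9.01-fold higher mean (log2 3.16, SE 0.12, limma adjusted p = 2.76e-12). ABCA1, the cholesterol exporter of the same family, rose by log2 1.83. SUSD6, a membrane protein with a sushi domain, rose by log2 1.31 and had the smallest coefficient of variation of the tested members among CPT-11 libraries, 2.52% (838, 823 and 864, against 343, 352 and 324 in controls). NINJ1, which ruptures the plasma membrane at the end of lytic death, averaged 1081 ± 92.3 in CPT-11 and 567 ± 72 in controls (SD, n = 3 each; log2 0.93). ASTN2, known from neuronal migration in mice, had 157, 170.2 and 150.4 in CPT-11 and 96, 80.2 and 82 in control libraries, with no overlap (log2 0.88, SE 0.17). RAP2B, a small GTPase of the RAS superfamily, rose by log2 0.52, whereas RAP2A (0.19) and RAP2C (0.00) did not pass with all 6 libraries.

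EDA2R (chrX:66595637-66639298), the receptor of an ectodysplasin isoform, was seen in CPT-11 cells alone, with few reads. It had 16, 16 and 11 reads in CPT-11 libraries and 0 in each control library. Taking 3 reads over the control group as the most that a count of 0 allows, the CPT-11 mean was 13.9 times that limit. This covers counting error in the controls only, not in the few CPT-11 reads, so 13.9 is not a lower bound. With the abundance filter removed, limma gave an adjusted p of 1.60e-05. That value rests on reads in the CPT-11 group alone, and EDA2R is not counted among the members called by limma. The ligand gene EDA fell (log2 -2.32).

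The 5 genes that act on RNA and protein all rose (median log2 1.219). RPS27L, a ribosomal protein paralog whose product also binds MDM2, had 1905, 2262 and 2317 normalized counts in CPT-11, against 775, 688 and 659 in control libraries. The groups were apart (log2 1.61, SE 0.10). RPS27, the ribosomal gene of the same family, had 2051, 3043 and 3855 in CPT-11 and 6430.1, 2536 and 2561 in control libraries and did not pass (log2 -0.27, limma adjusted p = 0.423). Control library 1 was the highest of the 6, and without library 1 of both groups RPS27 had a log2 fold change of 0.43 and passed (limma adjusted p = 0.000204). Of the 50-base stretches of RPS27L transcripts 1.65% also occur in a transcript of another annotated gene. RNF19B, a ubiquitin ligase, rose by log2 1.51, while RNF19A did not pass (-0.27). ZMAT3, a zinc finger protein that binds RNA and shapes splicing, had 2510.2, 2869 and 2875 in CPT-11, against 1253, 1166 and 1121 in control libraries (log2 1.219, SE 0.09). DCP1B, a cofactor of mRNA decapping, rose by log2 0.98, and its paralog DCP1A fell (-0.24), a call lost in 10 of 18 alternatives. FBXO22, a substrate receptor of an SCF ubiquitin ligase, showed the smallest rise of all members that passed: 1494, 1643 and 1777 in CPT-11, against 1306, 1255 and 1209 in control libraries. Its values did not overlap (log2 0.38, SE 0.09, limma adjusted p = 0.00277). FBXO22 shares 16.2% of its exonic bases with NRG4 on the opposite strand, and no source used here says whether strand was used in counting.

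**Figure D3:**
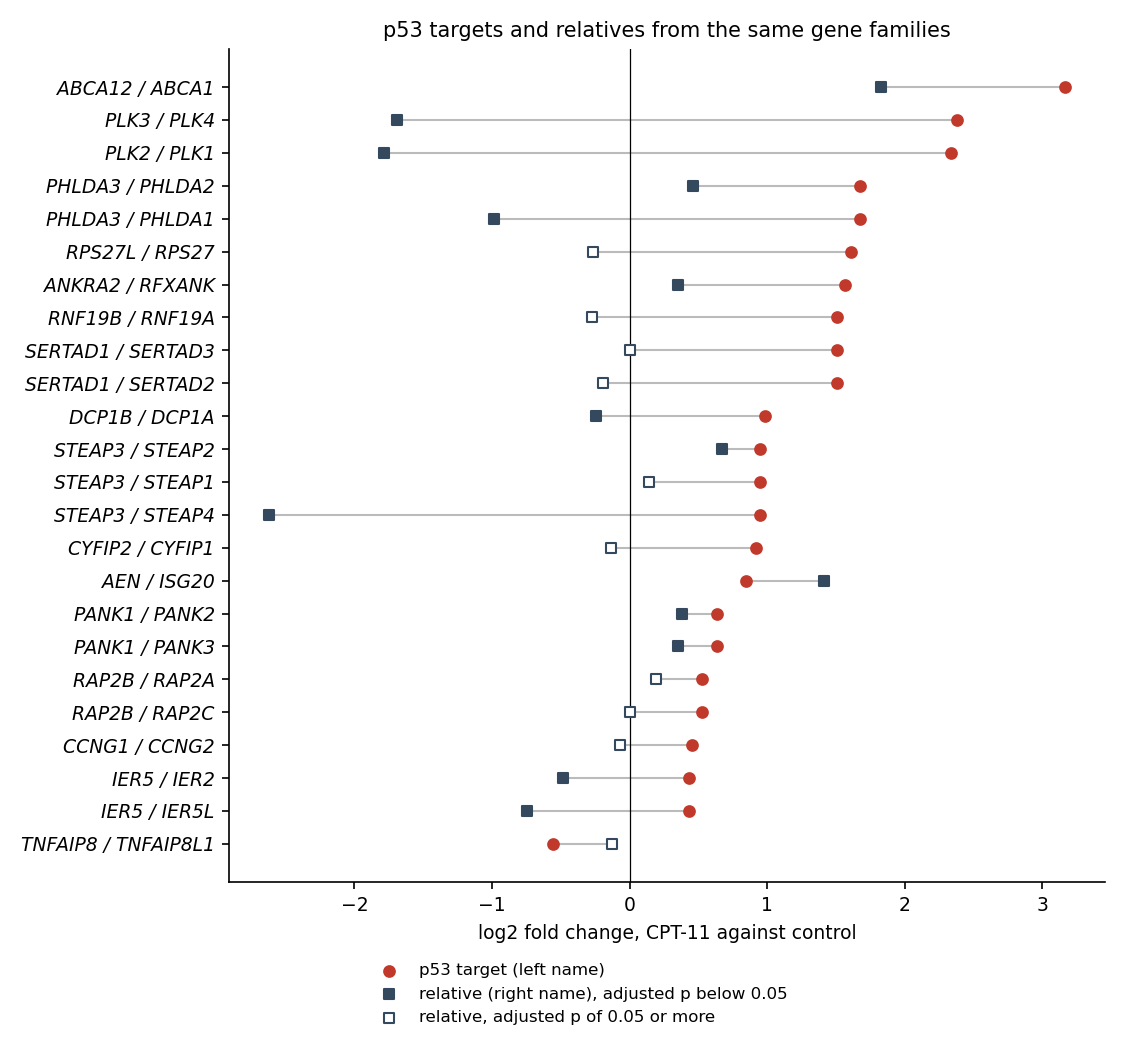
Log2 fold change, CPT-11 against control (n = 3 each), of p53 targets (red circles) and of relatives from the same gene families (blue squares, filled where the adjusted p was below 0.05). PLK1 and PLK4 fell where the paired p53 target rose, and the relatives ISG20 and TNFAIP8L1 had higher values than their pairs, AEN and TNFAIP8; STEAP4 entered the test through the control group alone.

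Relatives from the same gene families moved in both directions, as did the tested genes as a whole (24.3% called higher, 25.1% lower). Of 24 tested relatives 7 rose, 7 fell and 10 did not pass (median log2 -0.10). Besides those already given, RFXANK (0.35, a call lost in 5 of 18 alternatives), PANK2 (0.38), PANK3 (0.35) and STEAP2 (0.67) rose. STEAP4 was called lower (-2.62), with means of 3.93 in CPT-11 and 29.5 in control libraries, so it passed the filter through the control group alone. CCNG2 (-0.07) and STEAP1 (0.14) did not pass. The difference between a member and its relative was not tested.

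Genes that act on p53 moved in both directions. MDM2 rose by log2 1.09 and PPM1D, the phosphatase that damps p53 signalling, by log2 1.69, while MDM4 (-0.11) did not pass. Of 34 tested genes that act on p53 or in its feedback 9 rose, 13 fell and 12 did not pass. Over all tested genes 24.3% were called higher and 25.1% lower. The list had a median log2 fold change of -0.09. In that list TP53INP1 (2.68) and PPM1D rose most, and HIPK2 (-1.21) and KAT8 (-0.86) fell most.

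In a list of further direct p53 targets, from the families left out here and from others, 71 genes were tested. There 58 rose, 7 fell and 6 did not pass (median log2 fold change 1.11). Over all tested genes the shares were 24.3% higher and 25.1% lower. CDKN1A, the CDK inhibitor p21, had 36467, 32253 and 30460.4 normalized counts in CPT-11, against 4479, 5169 and 4675 in control libraries (log2 2.79). The highest called were PINCR (5.59), a long noncoding RNA that passed the filter through the CPT-11 group alone, and TLR3 (3.40), a sensor of double-stranded RNA. The lowest called were TNFRSF19 (-2.94), which averaged 8.99 in CPT-11 and 62.4 in control libraries and so passed the filter through the control group alone, and LPIN1 (-1.01). The 2 lists share 4 genes: MDM2, PPM1D, TP53INP1 and PML.

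**Figure D4:**
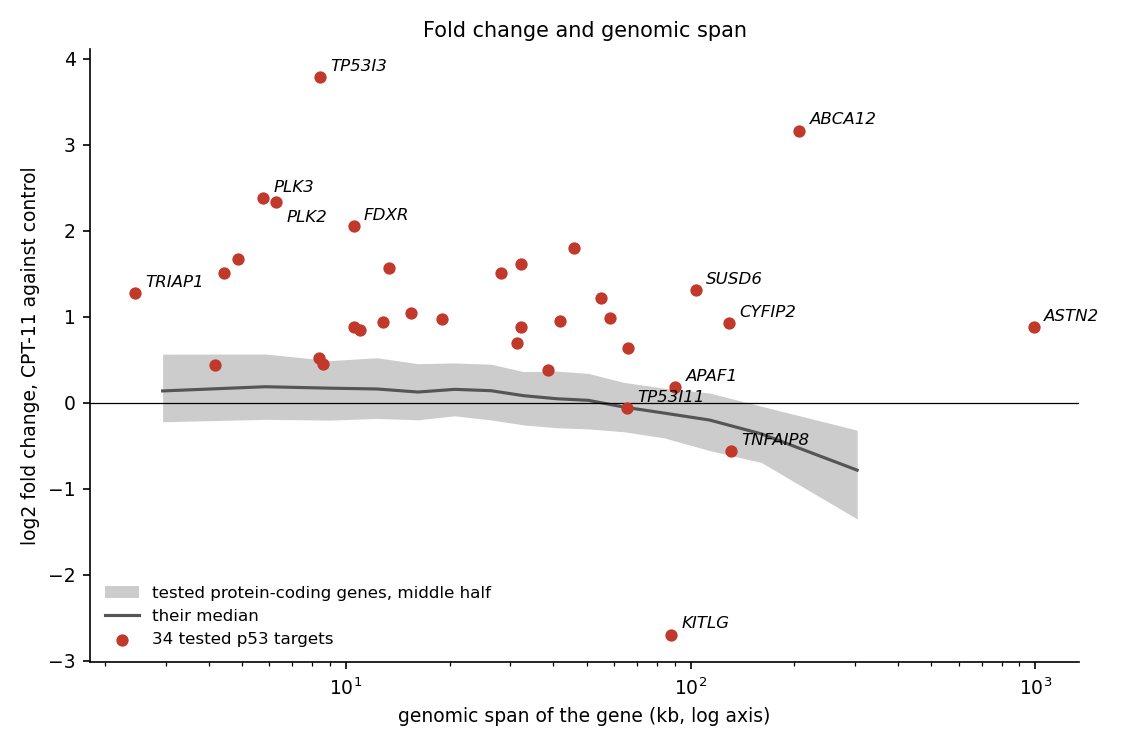
Log2 fold change, CPT-11 against control (n = 3 each), against genomic span in kb (log axis) for the 34 tested p53 targets (red) and, as a line with a grey band, the median and the middle 50% of tested protein-coding genes. The protein-coding median falls with span, while ABCA12, SUSD6 and CYFIP2, each over 100 kb, lie above the band and ASTN2 lies beyond its end at 0.88.

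Long genes were lower in CPT-11 cells across the transcriptome, and several members are long. The median log2 fold change of tested protein-coding genes was 0.17 below 10 kb of genomic span, 0.15 at 10 to 30 kb, -0.01 at 30 to 100 kb, -0.34 at 100 to 300 kb and -1.08 from 300 kb. The members spanned 2.45 kb (TRIAP1) to 989.8 kb (ASTN2), with a median of 31.4 kb. ASTN2 rose by log2 0.88 in the class whose median fell by 1.08. Of the 4 members of 100 to 300 kb ABCA12 (207 kb), CYFIP2 (129.5 kb) and SUSD6 (104 kb) rose and TNFAIP8 (131 kb) fell. Below 30 kb all 17 members rose, beside 30 of 34 tested members of any span and 24.3% of all tested genes. KITLG (88.1 kb), APAF1 (90.3 kb) and TP53I11 (65.4 kb) belong to the class of 30 to 100 kb, in which the other 9 of 12 members rose. Over the 34 members the fold change and the log10 of the span had Pearson's r = -0.28 and Spearman's rho = -0.30, a description over genes that share their libraries.

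**Figure D5:**
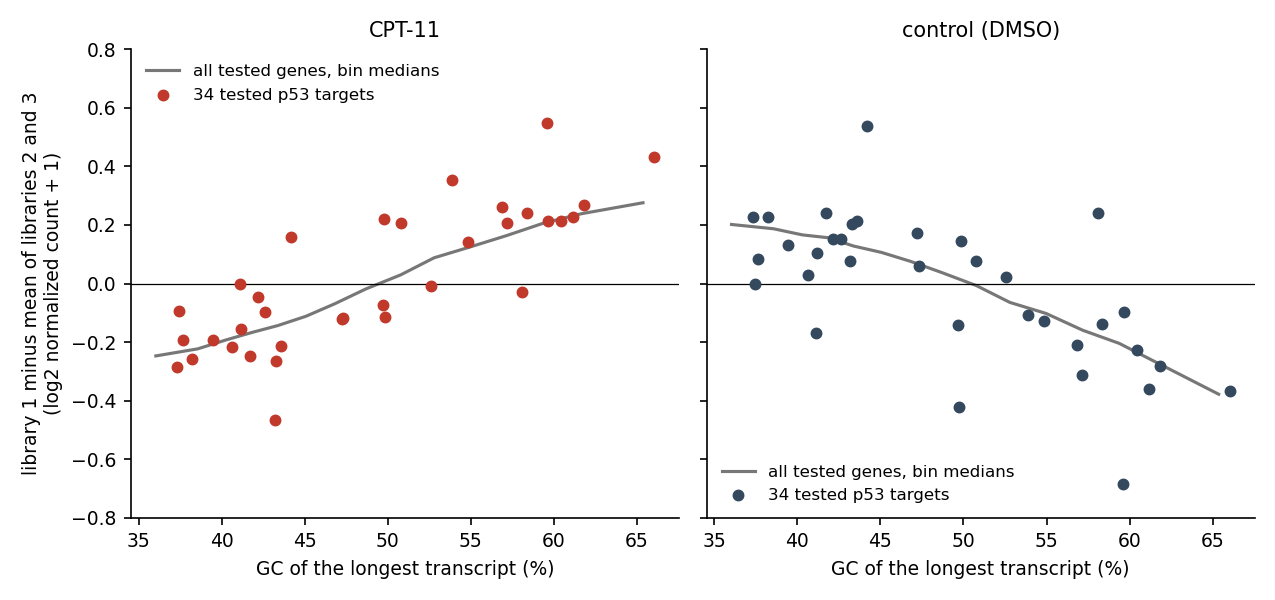
Difference of library 1 from the mean of libraries 2 and 3 (log2 normalized count + 1) against the GC content of the longest transcript, for the 34 tested p53 targets (points) and as medians of all tested genes in bins of GC (line). GC-rich members were high in CPT-11 library 1 (left, r = 0.81) and low in control library 1 (right, r = -0.66).

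How far library 1 stood from the others followed the base composition of the gene, with opposite sign in the 2 groups. Across the 34 members the deviation of CPT-11 library 1 and transcript GC content had Pearson's r = 0.81 and Spearman's rho = 0.81. For control library 1 they had r = -0.66 and rho = -0.60. CPT-11 library 1 was the highest of its group in 13 members, of median GC 58.4%, and the lowest in 16, of median GC 42.2%. Control library 1 was the highest in 18 members, of median GC 42.9%, and the lowest in 13, of median GC 57.2%. The pattern was not particular to the members. Over all tested genes CPT-11 library 1 was highest or lowest in 78.9%, at median GC of 56.6% and 42.8%. For control library 1 the share was 77.5%, at median GC of 42.9% and 56.7%. Without library 1 of both groups, 31 members rose and 2 fell, and the median log2 fold change was 0.99. More genes were also called in all under this setting than the 8022 called with all 6 libraries. The largest shifts were in PHLDA3, PIDD1 and IER5, all given above, and PLK3, FDXR and NINJ1 then had log2 fold changes of 2.18, 1.87 and 0.76. PANK1 came to 0.82 and CCNG1 to 0.62.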

How the data were processed

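Groups and replicate numbers came from the sample titles and the treatment labels, which give 3 libraries per group; the design text of the series mentions duplicates, and this was not resolved. The submitters' processing notes list HISAT2 2.1.0 beside fastp 0.19.3, StringTie 1.3.4d beside featureCounts 1.6.2, and edgeR 3.24.3 beside DESeq2 1.22.1, on GRCh38, with no role for any of them. Per gene and library the authors deposited a normalized signal, called the normalized count: in each library 100% of values were whole multiples, within 0.001, of what 1 read is worth, so the reads behind them are known. Per the file headers the authors' table also has a log2 fold change, a p-value and an adjusted p-value, quoted only as theirs. Gene coordinates matched GENCODE 29 (GRCh38) for 30560 of 30560 genes.

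As the table holds normalized counts, limma 3.58.1 (R 4.3.3) with a mean-variance trend was fitted to log2(normalized count + 1) of genes averaging at least 10 over the 6 libraries, with Benjamini-Hochberg adjustment over 16239 genes. Fold changes are on that scale, which understates the change of low genes. Adjusted p-values of genes are from that limma fit. A value after ± is an SD over 3 libraries unless SE is written. The script was tested on simulated data with 200 changed genes. That simulation held no deviation of library 1 with GC content, so it does not cover that feature of these data.

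The members and lists were chosen with earlier results of these data known. The rule for named genes takes all 35 members, MDM2, MDM4, PPM1D and CDKN1A, the 2 highest and 2 lowest called genes of the feedback and other-target lists, and any relative or partner of a member; marker genes were named after their values were seen. An item that the rule also takes is not reported here. GC content is that of the longest GENCODE transcript, and shared exonic bases were computed from the same annotation. Other settings tried were the pseudocount, the abundance filter, the scaling of libraries, edgeR 4.0.16 and DESeq2 1.42.0 on recovered reads, a replicate block, leaving out each library and, chosen after seeing the data, leaving out library 1 of both groups. No set test was run.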

Additional observations from a re-analysis of the deposited data

How the results depend on the processing

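Of 34 tested members 33 kept their call under all 18 alternatives that tested them, and SPATA18 dropped out of testing at a minimum mean of 50 normalized counts. APAF1 passed under 4 alternatives: library totals without mitochondrial genes (log2 0.27, limma adjusted p = 0.0456), without CPT-11 library 1 (0.27, 0.0497), without control library 1 (0.26, 0.0456) and without both (0.35, 0.00118). The count that rose ran from 29 to 31, and 2 fell throughout. The median log2 fold change of 0.96 came to 0.99 with library total scaling, 1.04 with library totals without mitochondrial genes and 0.99 without library 1 of both groups. Leaving out 1 library at a time gave medians of 0.95 to 1.01. Without library 1 of both groups the partner CYCS passed at log2 0.40. RPS27, the paralog of RPS27L, had a log2 fold change of -0.27 that ran from -0.49 to 0.18 with 1 library left out and came to 0.43 without library 1 of both groups; the cause was not tested. Every scaling moved the median of all genes by less than 0.1. On the recovered reads edgeR called 8079 genes and DESeq2 7805. The promoter count of 8 became 22 with the looser pair rule.

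With the replicate number as a block, 30 members rose, 2 fell and 6812 genes were called in all, against 8022 without the block. Whether a number marks a shared culture or day is not said in the labels. Same-numbered libraries deviated from their group means with correlations of -0.23, -0.01 and -0.10. These cannot decide the question, because library 1 deviated with base composition in opposite directions in the 2 groups. Depth limits EDA2R, with 16, 16 and 11 reads in CPT-11 and 0 in every control library.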
